A study of Mus musculus with 2 samples.

Results

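The miR-181 family of the mouse consists of 6 microRNA genes in 3 clusters of 2 genes each. They are Mir181a-1 with Mir181b-1, Mir181a-2 with Mir181b-2, and Mir181c with Mir181d. The genes were taken by name, as the 6 of 2202 annotated microRNA genes in GENCODE M21 that bear these symbols. Their reads were described in heart tissue of female B6CASTF1/J mice, an F1 hybrid strain, at an age of 14 days. Both biological replicates (n = 2) belong to 1 group, for which the labels name no treatment, and the data describe levels. One label writes the age in months where the age field has days, and the age field was used. A label of replicate 1 speaks of 3 females and that of replicate 2 of a single female, and whether replicate 1 was pooled is not stated. The libraries were made from small RNA of under 30 bases.

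MicroRNAs are cut from hairpin precursors, and each hairpin can give a 5p and a 3p arm. The arm that is loaded into an Argonaute protein pairs with messenger RNAs through its seed, bases 2 to 8, and lowers their output. In this family the 5p arms are the well-studied products and the 3p arms are usually the less abundant strand. The miR-181 family is best known from the immune system, where in mice miR-181a sets the sensitivity of T cell receptor signalling during thymocyte development. In endothelial cells miR-181b restrains NF-κB signalling. In rat cardiomyocytes miR-181c is known to enter mitochondria and to act on a cytochrome c oxidase transcript. For miR-181d, repression of the DNA repair gene MGMT has been described in human glioma.

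The 5p arms are shown because they decide which reads could be counted for which gene. All 6 genes were matched in the RefSeq table (GRCm38.p6), and the 6 hairpins list 4 different 5p sequences, with the seed in capitals:
miR-181a-5p (Mir181a-1 and Mir181a-2): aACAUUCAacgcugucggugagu
miR-181b-5p (Mir181b-1 and Mir181b-2): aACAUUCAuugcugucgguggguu
miR-181c-5p (Mir181c): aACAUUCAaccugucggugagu
miR-181d-5p (Mir181d): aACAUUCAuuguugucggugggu

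The 4 sequences share 1 seed, ACAUUCA, and no other gene among the 1679 mature names of the table lists an arm with it. Counted from 1 at the 5′ end of miR-181a-5p, miR-181b-5p differs by A9U, C10U and A21G and has 1 base more. From miR-181b-5p, miR-181d-5p differs by C12U and is 1 base shorter. Between miR-181a-5p and miR-181c-5p the edit distance is 1, made by a missing base. Mir181a-1 and Mir181a-2 hold the same 5p arm, and so do Mir181b-1 and Mir181b-2.

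The 3p arms tell the duplicated genes apart. They are shown with the bases in capitals that differ between the copies or reach past the other copy:
miR-181a-1-3p (Mir181a-1): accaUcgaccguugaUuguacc
miR-181a-2-3p (Mir181a-2): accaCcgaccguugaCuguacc
miR-181b-1-3p (Mir181b-1): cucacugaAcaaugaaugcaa
miR-181b-2-3p (Mir181b-2): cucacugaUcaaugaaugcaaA

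Each of the 6 3p arms occurred in 1 annotated hairpin. The stretch common to both miR-181a hairpins was 28 bases long, and that common to both miR-181b hairpins was 26 bases long. They are shown with the 5p arm in capitals, since a read that lies wholly inside such a stretch has more than 1 place of origin:
Mir181a-1 and Mir181a-2: gAACAUUCAACGCUGUCGGUGAGUuugg
Mir181b-1 and Mir181b-2: ucAACAUUCAUUGCUGUCGGUGGGUU

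The miR-181a stretch ran 1 base before and 4 bases after the 5p arm, so that a read reaching up to 4 bases past the annotated end would still lie inside it. The miR-181b stretch ended with the annotated arm, and the next base is G in Mir181b-1 and U in Mir181b-2. In the deposited tables, reads mapping to several places stand in a summary line and are counted for no gene; their share was 41.1% in replicate 1 and 39.9% in replicate 2. The counts of the 4 duplicated genes therefore leave out any read confined to these stretches. The tables do not separate the arms, so which arm a counted read came from was not tested.

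**Figure D1:**
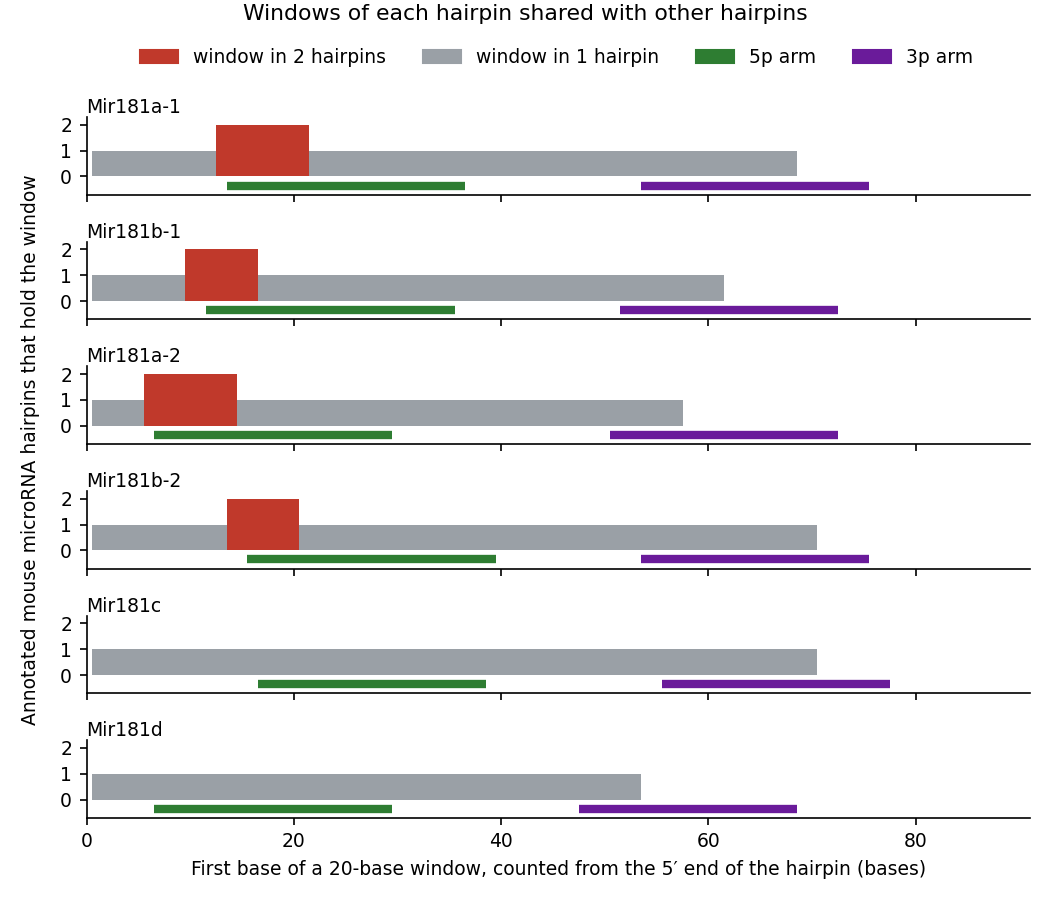
Number of annotated mouse microRNA hairpins (y axis) that hold each 20-base window of the 6 hairpins, by the window's first base counted from the hairpin's 5′ end (x axis, bases), with the 5p and 3p arms drawn below. The windows that occurred in 2 hairpins were 9 each for Mir181a-1 and Mir181a-2 and 7 each for Mir181b-1 and Mir181b-2, all of them overlapping the 5p arm, whereas every window of Mir181c and Mir181d occurred in 1.

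Of the 20-base windows of each hairpin, 86.8% were found in that hairpin alone for Mir181a-1, 84.2% for Mir181a-2, 88.5% for Mir181b-1 and 90% for Mir181b-2. For Mir181c and Mir181d the share was 100%. The other windows of the 4 genes all overlapped the 5p arm. Only annotated hairpins were searched, so matches elsewhere in mm10 were not looked for.

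The clusters lie on 3 chromosomes of mm10. Mir181a-1 (chromosome 1, 137966455 to 137966541, plus strand) lies 97 bases upstream of Mir181b-1 (137966639 to 137966718). Both are in an intron of the noncoding gene Gm4258 and antisense to an intron of the lincRNA gene Gm26936. Mir181b-1 lies wholly within the lincRNA gene A430106G13Rik and overlaps an exon of it, and Mir181a-1 overlaps that gene by 11 bases. Mir181a-2 (chromosome 2, 38852735 to 38852810, plus strand) and Mir181b-2 (38853830 to 38853918) are 1019 bases apart, antisense to an intron of Nr6a1, an orphan nuclear receptor gene. Mir181b-2 is also antisense to an exon of Gm44144, a transcript of annotated type TEC. Mir181c (chromosome 8, 84178873 to 84178961, minus strand) and Mir181d (84178716 to 84178787) are 85 bases apart in an intron of Nanos3, a germ cell gene, on its strand. The hairpins measure 72 to 89 bases. All 6 genes had 0 reads on the opposite strand in both libraries, and their unstranded counts equalled the own-strand counts.

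Replicate 1 held 12701590 reads and replicate 2 held 7126319, of which 5237062 and 3026501 fell on microRNA genes in their own orientation. Levels are counts per 1000000 of these reads (CPM), with the mean and SD over both libraries (n = 2) and exact 95% Clopper-Pearson intervals per library. An SD over 2 libraries rests on 1 difference, and intervals cover counting error only, since without molecular identifiers reads cannot be taken as separate molecules. Of 7 cardiomyocyte markers, 5 had at least 10 reads in each library, and the sum over the list was 5192 CPM (replicate 1) and 3454 CPM (replicate 2). Mir208a, Mir208b and Mir499 stood at 288 to 3482 CPM, while the duplicated Mir1a and Mir133a genes stood at 0.330 to 33.4 CPM. Endothelial Mir126a stood at 42911 CPM in replicate 1 and 63991 CPM in replicate 2. Smooth muscle Mir143 and Mir145a together stood at 30333 and 33879 CPM, and the 5 leukocyte markers at 3855 and 4154 CPM. The 6 markers of other tissues summed to 137 and 103 CPM. Mir122 (liver) stood at 55.9 and 70.4 CPM, Mir375 (pancreas) at 72.8 and 11.9 CPM and Mir206 (skeletal muscle) at 7.83 and 20.5 CPM. The 3 neuronal Mir124a genes had 0 reads in both libraries. Reads with several places are counted for no gene, so a count of 0 for genes with copies does not show absence.

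The family as a whole was a minor part of the counted reads, and most of it came from Mir181d and Mir181c. The 6 genes together had 15097 reads in replicate 1 and 12458 in replicate 2, or 2883 and 4116 CPM (3499.5 ± 872 CPM). That was 0.288% of counted reads in replicate 1 (interval 0.284 to 0.293) and 0.412% in replicate 2 (0.404 to 0.419). A minimum of 10 reads in each library was reached by all 6 genes, and by 15.2% of the annotated microRNA genes. The cluster of Mir181c and Mir181d gave 73.2% of the family's reads in replicate 1 and 67.4% in replicate 2. The cluster of Mir181a-2 and Mir181b-2 gave 22.6% and 29.6%, and that of Mir181a-1 and Mir181b-1 gave 4.19% and 2.93%. These shares describe the counted reads and not the amount of each mature microRNA, and reads confined to the shared stretches, whose number the tables do not give, are not in them.

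**Figure D2:**
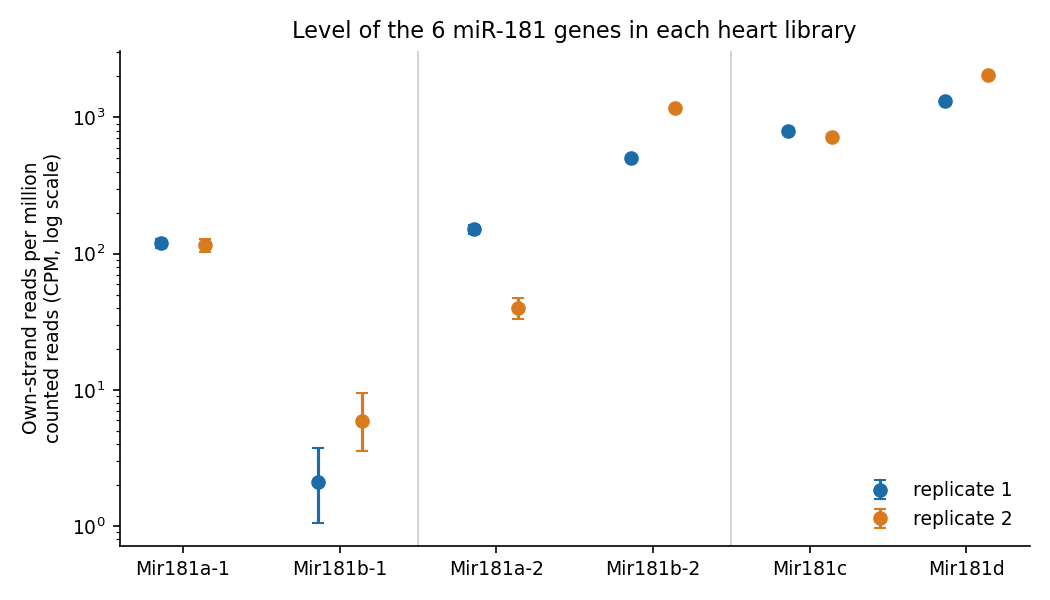
Level of each miR-181 gene in CPM (y axis, log scale) in replicate 1 and replicate 2, with exact 95% counting intervals, in the order of the 3 clusters. Mir181d was highest in both libraries and Mir181b-1 lowest, and the points of Mir181a-2 and Mir181b-2 moved in opposite directions between the libraries.

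Mir181d had the most counted reads of the members, with 6882 reads (1314 CPM) in replicate 1 and 6222 reads (2056 CPM) in replicate 2. It took rank 65 among all microRNA genes in replicate 1 and rank 46 in replicate 2. Its partner Mir181c had 4167 reads (796 CPM) and 2179 reads (719.97 CPM), at ranks 79 and 80. The level of Mir181c (758 ± 53.5 CPM) had a smaller SD than that of Mir181d (1685 ± 524 CPM), which was lower in replicate 1. Counting error was small beside this, with intervals for Mir181d of 1283 to 1345 CPM (replicate 1) and 2005 to 2108 CPM (replicate 2).

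Mir181b-2 was the highest of the duplicated genes, with 2627 reads (502 CPM) in replicate 1 and 3572 reads (1180.2 CPM) in replicate 2. Its neighbour Mir181a-2 had 789 reads (151 CPM) and 120 reads (39.6 CPM), so its higher library was the one in which Mir181b-2 was lower. Mir181a-1 had 621 reads (119 CPM) and 347 reads (115 CPM), an average of 117 ± 2.77 CPM. Mir181b-1, which lies beside Mir181a-1 and holds the same 5p arm as Mir181b-2, had 11 reads (2.10 CPM, interval 1.05 to 3.76) and 18 reads (5.95 CPM, 3.52 to 9.40).

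By mean CPM the order was Mir181d, Mir181b-2, Mir181c, Mir181a-1, Mir181a-2 and Mir181b-1, and per kilobase of hairpin it was the same. Reads confined to the shared stretches are missing from the duplicated genes, so this order of counted reads need not be that of the mature microRNAs. The mean levels were 23402 CPM per kilobase for Mir181d, 9449 for Mir181b-2, 8515 for Mir181c, 1340.4 for Mir181a-1, 1252 for Mir181a-2 and 50.3 for Mir181b-1. Between neighbours in this order, Mir181d stood above Mir181b-2, Mir181c above Mir181a-1 and Mir181a-2 above Mir181b-1 in both libraries without overlap, on the CPM scale and per kilobase of hairpin. The libraries of Mir181b-2 and Mir181c overlapped, as did those of Mir181a-1 and Mir181a-2, so neither pair differed beyond its spread. In replicate 1 alone, Mir181c stood above Mir181b-2 and Mir181a-2 above Mir181a-1, while replicate 2 alone kept the order of the means.

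**Figure D3:**
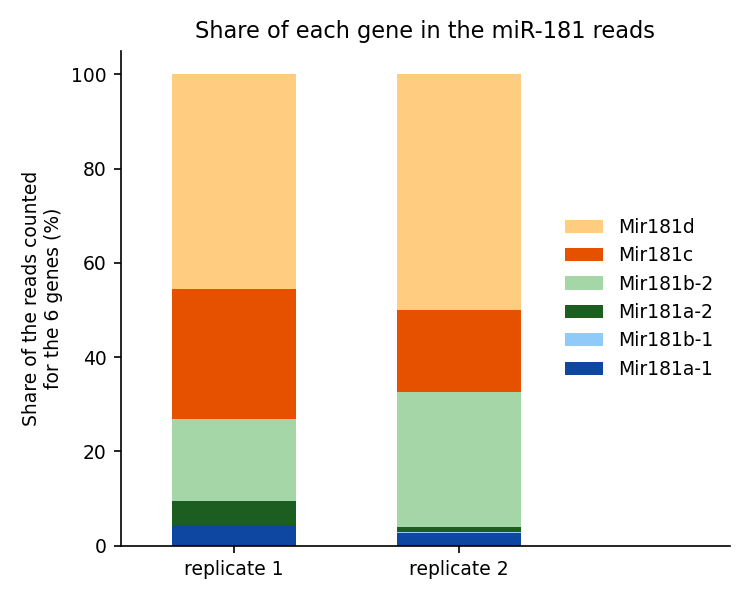
Share of each gene in the reads counted for the 6 miR-181 genes (y axis, percent) in replicate 1 and replicate 2, stacked to 100%. Mir181d held 45.6% in replicate 1 and 49.9% in replicate 2, Mir181b-2 17.4% and 28.7%, and Mir181a-2 5.23% and 0.963%.

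The 2 libraries differed in 4 of the 6 genes by more than counting error, and not in 1 direction. Differences are given as log2 of replicate 1 over replicate 2 after TMM scaling, with an exact two-sided binomial test over 430 genes and Benjamini-Hochberg adjustment. The test compares these 2 libraries on counting error, not conditions. Mir181a-2 was higher in replicate 1 by 3.45-fold (log2 1.79, interval 1.51 to 2.08, adjusted p = 3.22e-47, exact binomial test). Of all tested genes, 27.9% were called higher in replicate 1.

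Mir181b-2 was lower in replicate 1 by 2.58-fold (log2 -1.37, interval -1.44 to -1.30, adjusted p = 3.73e-300, exact binomial test). Mir181d was lower by 1.72-fold (log2 -0.78, interval -0.83 to -0.73, adjusted p = 3.45e-204, exact binomial test). Mir181b-1 was lower by 3.06-fold, but on 29 reads in all its interval was wide (log2 -1.61, -2.86 to -0.48, adjusted p = 0.00953, exact binomial test). Of all tested genes, 27.4% were called lower in replicate 1. With either direction counted, 4 of 6 members were called against 55.3% of all genes, so being called did not set the family apart.

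Mir181c (log2 0.0098, interval -0.07 to 0.09, adjusted p = 0.876, exact binomial test) and Mir181a-1 (log2 -0.09, interval -0.28 to 0.11, adjusted p = 0.509, exact binomial test) were not called. With total counts in place of TMM, which shifts all log2 differences by 0.13, Mir181c was called higher in replicate 1 (log2 0.14, adjusted p = 0.000384, exact binomial test) and the sign of Mir181a-1 turned (log2 0.05). Of all genes, total counts called 55.8%: 33.5% higher and 22.3% lower in replicate 1. The other 4 calls were the same under total counts, with DESeq2 size factors (55.3% of genes called, 29.3% higher and 26% lower) and in edgeR's exact test with the biological coefficient of variation set to 0.1. That edgeR test called 28.6% of genes, 15.6% higher and 13% lower. At the coefficient of 0.424 that edgeR estimated from these 2 libraries, none of the 6 genes was called by its exact test, against 4 of 430 genes (0.93%). At an unadjusted p under 0.05, the edgeR test at that coefficient had 0 of the 6 genes and 24 of the 430.

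**Figure D4:**
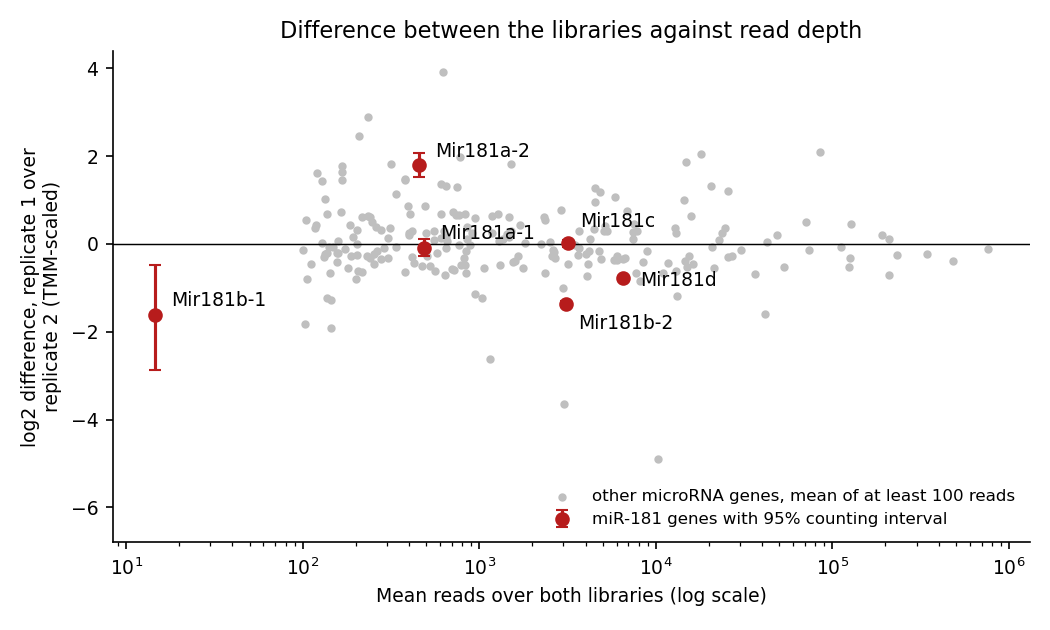
Log2 difference of replicate 1 over replicate 2 after TMM scaling (y axis) against mean reads over both libraries (x axis, log scale) for the 6 miR-181 genes with 95% counting intervals, and for other microRNA genes averaging 100 reads or more as grey points. Mir181a-2 lies at 1.79 and Mir181b-2 at -1.37, and Mir181c and Mir181a-1 lie near 0.

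Among the 226 genes that averaged 100 reads or more, 18.1% differed by more than 2-fold between the libraries. Of the 5 members in that class, Mir181a-2 and Mir181b-2 did, at ranks 15 and 24 by the size of the difference, and Mir181d stood at rank 48. Mir181a-1 and Mir181c were at ranks 206 and 224, close to the smallest differences of all. The median difference of the 5 members was 0.78 on the log2 scale without regard to sign, against 0.40 over all 226 genes. The erythroid markers Mir451a and Mir144 together stood at 337 CPM in replicate 1 and 6972 CPM in replicate 2, with both genes lower in replicate 1. The 5 leukocyte markers did not move in 1 direction: Mir223 stood at 106 and 27.1 CPM, Mir150 at 659 and 395 CPM, Mir146 at 1366 and 1012 CPM and Mir142 at 133 and 101 CPM, whereas Mir155 stood at 1591 and 2619 CPM. Whether these differences have a part in those of the miR-181 genes was not tested, and in bulk tissue fewer cells of a type and less RNA per cell cannot be told apart.

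Within the clusters, the balance of the 2 genes moved furthest for Mir181a-2 and Mir181b-2. A ratio within a library needs no scaling between libraries. Mir181b-2 had 3.33 reads per read of Mir181a-2 in replicate 1 and 29.8 in replicate 2. The log2 ratio of Mir181a-2 over Mir181b-2 was -1.73 in replicate 1 (interval -1.85 to -1.62) and -4.89 in replicate 2 (-5.17 to -4.63), a difference of 3.16 (2.87 to 3.44) or 8.91-fold.

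The hairpins of this cluster are shown with both arms in capitals (GENCODE M21 transcripts, chromosome 2, plus strand):
Mir181a-2: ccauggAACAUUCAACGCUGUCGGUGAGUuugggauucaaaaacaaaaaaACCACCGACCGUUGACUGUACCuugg
Mir181b-2: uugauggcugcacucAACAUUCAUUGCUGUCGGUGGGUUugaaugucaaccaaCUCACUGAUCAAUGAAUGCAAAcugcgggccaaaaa

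The other clusters moved less. Mir181d had 1.65 reads per read of Mir181c in replicate 1 and 2.86 in replicate 2, a difference in the log2 ratio of Mir181c over Mir181d of 0.79 (0.70 to 0.88). Mir181a-1 had 56.5 reads per read of Mir181b-1 in replicate 1 and 19.3 in replicate 2, a difference of 1.52 (0.45 to 2.60) that rests on the 11 and 18 reads of Mir181b-1. In each cluster the ratio of the miR-181a or miR-181c gene over its miR-181b or miR-181d partner was higher in replicate 1.

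**Figure D5:**
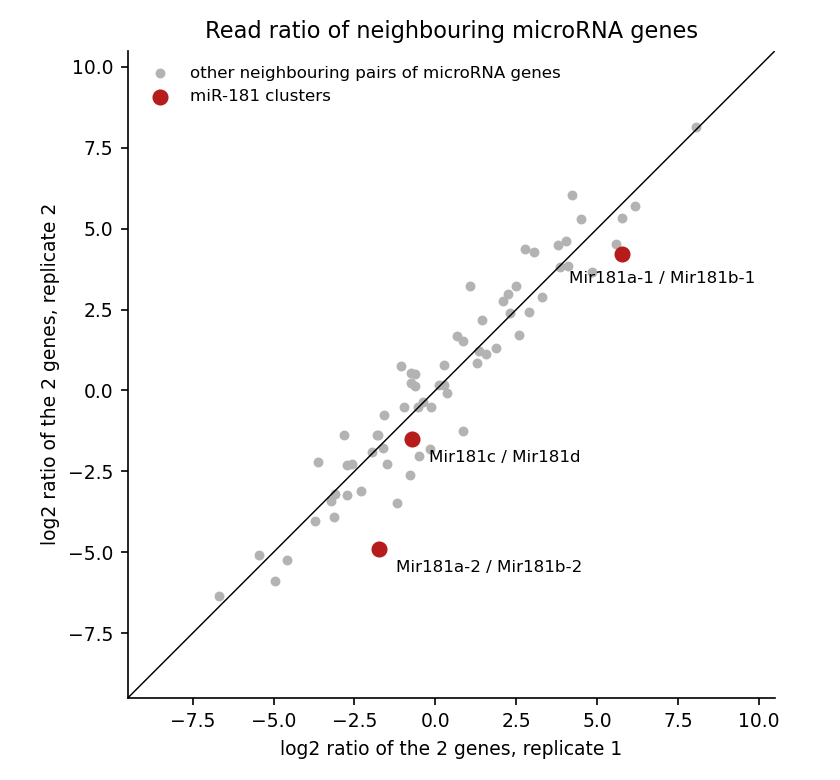
Log2 read ratio of the 2 genes of each miR-181 cluster in replicate 1 (x axis) and replicate 2 (y axis), with other neighbouring pairs of microRNA genes in grey and the line of equal ratios. The cluster of Mir181a-2 and Mir181b-2 lies at -1.73 and -4.89, below the line and farther from it than the other pairs.

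To place these values, the same difference was computed for every pair of neighbouring microRNA genes on 1 strand, at most 10000 bases apart and averaging 100 reads or more each. Over these 68 pairs, some of which share a gene, the median difference in log2 ratio was 0.65 without regard to sign (quartiles 0.38 and 1.02). The pair of Mir181a-2 and Mir181b-2 had the largest difference of the 68, followed by Mir144 and Mir451a at 2.29, and the pair of Mir181d and Mir181c stood at rank 25. Mir181a-1 and Mir181b-1 were not among these pairs because of the low count of Mir181b-1. Opposite calls within a pair, as in Mir181a-2 and Mir181b-2, occurred in 35.3% of the 68 pairs. This is a description of 2 libraries, for which no test was made.

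The 2 copies of miR-181a also changed places between the libraries. Mir181a-1 had 0.787 reads per read of Mir181a-2 in replicate 1 and 2.89 in replicate 2, a difference in log2 ratio of -1.87 (-2.21 to -1.54). Among the 11 pairs of genes that list an identical mature arm and average 100 reads or more each, this was the largest difference, against a median of 0.33. The next was 0.59, for Mir16-1 and Mir16-2. For the copies of miR-181b the difference was within counting error, with 239 reads of Mir181b-2 per read of Mir181b-1 in replicate 1 and 198 in replicate 2, a difference in log2 ratio of Mir181b-1 over Mir181b-2 of -0.24 (-1.31 to 0.82).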

How the data were processed

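The deposited tables hold whole-number read counts per gene, made by the authors and not normalized; per the readme deposited with them, the build was mm10 and the annotation GENCODE M21. For trimming, alignment and counting, the tools were not given in the sources used here. Each table has no header and 3 columns of counts, which by their values are unstranded, own-strand and opposite-strand reads; the own-strand column was used. The first 4 lines are summary lines and were left out. Unmapped reads made up 13.4% of replicate 1 and 13.3% of replicate 2, reads with several places 41.1% and 39.9%, and reads outside microRNA genes 4.33% and 4.30%.

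Both libraries form 1 group, so there was no contrast between groups for edgeR's quasi-likelihood test, and setting the libraries against each other leaves it no residual degrees of freedom. The common dispersion was estimated with both libraries as 1 group. Libraries were compared with an exact two-sided binomial test (smaller tail doubled) of every gene whose reads sum to 10 or more, the expected share taken from TMM-scaled sizes, with Benjamini-Hochberg adjustment over 430 genes and 0.05 as the threshold. To compute log2 differences, 0.5 reads were added to each count. On simulated data the binomial test kept to its threshold where libraries differed by counting error alone, but also called unchanged genes where they varied beyond it, so a call means a difference beyond counting error and no more. The edgeR test at the estimated dispersion made no calls in these simulations and called 4 of 430 genes in the data. In the data as in the simulations, that dispersion comes from the same 2 libraries that the test compares, so their differences enter it. In the simulations these include the changes put in. Variation beyond counting error, where simulated, was set to a coefficient of 0.1, against the 0.424 estimated from the data. An absence of calls at the estimated dispersion therefore does not show that the members were alike in both libraries. Intervals of differences in log2 ratio use the normal approximation of the log odds ratio. Named besides the members were the tissue markers, the 2 genes nearest in level to each member, and genes that overlap a member; pairs from the neighbour and shared-arm comparisons were named after their values were seen. The comparison of genes with identical arms was chosen after seeing the data. Members, lists and tests were chosen with earlier results of these data known. Symbols of 1018 of 2202 genes matched the RefSeq table. The labels call the libraries biological replicates; p-values here measure counting error between them. Versions were matplotlib 3.10.9, scipy 1.17.1, numpy 2.4.6 and pandas 2.3.3 under Python 3.11.15, and DESeq2 1.42.0 and edgeR 4.0.16 under R 4.3.3.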

Additional observations from a re-analysis of the deposited data

How the results depend on the processing

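The summed level of the 6 genes was 3499.5 CPM, and 4800 CPM with unstranded reads, 1468 CPM with all reads of the library as denominator and 1694 CPM with mapped reads; the members' own counts are the same in the unstranded column, so that the denominator alone makes these shifts. Leaving out a replicate gave 2883 to 4116 CPM, and 2 to 6 members kept their place in the order. All 6 genes were detected with a minimum of 5 reads, and 5 with 20 reads. The share of 15.2% of annotated genes holds for the minimum of 10 reads, and the shares at 5 and 20 reads were not computed. Called higher in replicate 1 was 1 member (27.9% of all tested genes). With total counts it was 2 (33.5%), with no filter 2, and 0 at the dispersion edgeR estimated. Called lower were 3 (27.4%), against 0 at that dispersion and 2 with at least 100 reads in sum, which leaves out Mir181b-1. At that dispersion 0.93% of genes were called in either direction. For no filter and for at least 100 reads in sum, the share of all genes called was not computed, so those member counts have no background beside them. Mir181a-1 (log2 -0.09) turned to 0.0476 with total counts and 0.0428 with no filter, not called in any of these, and Mir181c was called under both settings. The ratios within clusters moved by less than their spread with a pseudocount of 10 reads. No paired analysis was possible because the libraries form 1 group. Depth limits Mir181b-1, with 29 reads in all, and the limit set by a count of 0 was 0.573 CPM (replicate 1) and 0.991 CPM (replicate 2).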

Other observations

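For each member the microRNA genes nearest in level were found by the distance of log2(CPM + 1) over the 2 libraries. With 2 libraries such a distance describes a similar level and says nothing of shared control. Nearest to Mir181d were Mir379 and Mir221, to Mir181c were Mir382 and Mir29a, and to Mir181b-2 were Mir16-1 and Mir467d. Mir181a-2 lay nearest to Mir92b, at 123 CPM in replicate 1 and 39.98 CPM in replicate 2, and to Mir148b, at 122 and 40.3 CPM. Mir181a-1 lay nearest to Mir669o, at 117 and 116 CPM, and Mir193b, and Mir181b-1 to Mir1943 and Gm38670. The distances ran from 0.0247 to 0.653.

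Among genes averaging 100 reads or more that matched the RefSeq table, the 25 genes that list a mature arm identical to that of another gene differed between the libraries by a median of 1.57-fold, and the other 178 genes by 1.31-fold. With a 20-base window shared with another annotated hairpin as the measure, over all 226 genes, the gap was smaller. The medians were then 1.46-fold for 55 genes with such a window and 1.30-fold for 171 without. Of the miR-181 genes, Mir181a-1, Mir181a-2 and Mir181b-2 belong to the 25 genes and so enter their median. No test of either difference was made.

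On chromosome 8, Mir181c lies 29556 bases from Mir23a, a gene of another microRNA cluster.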
